A study of Mus musculus with 4 samples.

Results

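Clu encodes clusterin, a secreted glycoprotein that binds misfolded proteins outside the cell as a chaperone, associates with lipoprotein particles and inhibits the terminal complement complex. Clusterin is also stored in platelet alpha granules, and its transcript is used as a marker of the platelet branch of hematopoiesis. Hematopoietic stem cells (HSCs) and the megakaryocytes that shed platelets share part of their program, including von Willebrand factor (Vwf), so that the transcript can be followed both in immature cells and in cells that have begun to differentiate. Clu is 1 of the 28692 genes counted in single cells of the mouse hematopoietic stem and progenitor (HSPC) compartment, and it was taken up here because of its difference between ages. Its age values are therefore given as a description with no test, and the tests below concern where Clu is found among the cells and what accompanies it.

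The study asked how aging changes the HSPC compartment one cell at a time. Bone marrow cells that were Lin-, Sca1+, cKit+ and Flt3- were sorted from male C57BL/6-CD45.2 mice with no genetic modification or treatment, aged 2 to 3 months (young) or 17 to 18 months (aged), and were captured with a droplet kit that reads the 3′ end of transcripts. Each age has 2 pools of 2 or 3 mice, and the letter of a pool marks the batch and sequencing facility (A or B), which a young and an aged pool share. They do not share the sequencing depth. By the study's methods, young B and aged A were sequenced to more reads per cell than young A and aged B. The part of this difference in the results was not tested. For 1 young pool (B) and 1 aged pool (A) the description field names the opposite age, and the titles and source names are followed here. Mice were mixed before capture, so that the pool is the replicate and the spread between mice is unknown.

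After the study's filter on total counts, 14915 of 15566 barcodes remained, between 2244 and 5189 per pool, with a median of 5674 to 6719 unique molecular identifiers (UMIs, 1 per captured transcript) per cell. Pairs of pools shared 10 to 29 barcodes. The defining HSC markers were present in every pool, while the 6 stromal markers summed to at most 4.02 CPM (UMIs scaled to a common library total of 1000000) and the 8 macrophage markers to at most 13.8 CPM in any pool, measured in cells thinned to 3000 UMIs. The 6 endothelial markers summed to 32.2 to 50.7 CPM, and the 10 B and plasma cell markers to 484 CPM in aged pool A against 90.6 to 125 CPM in the others. Their part in the results was not tested.

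Clu lies on the forward strand of chromosome 14 (GRCm38, chr14:65968483-65981547, ENSMUSG00000022037), and the GENCODE M21 annotation lists no gene that overlaps it. Its full-length coding transcript, Clu-201, has 9 exons. The 3′ untranslated region lies in the last exon, from 65981315 to 65981547, next to the end that the kit captures, and of the 9 annotated transcripts Clu-201 is the only one that reaches it. The counts are per gene and do not tell transcripts apart. The nearest measured genes are Scara3, 14548 bp before it, and Gulo, 5239 bp after it.

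Clu was scarce in young and common in aged HSPCs. Its level was 6.04 CPM in young pool A, 10.2 CPM in young pool B, 144.5 CPM in the aged pool of batch A and 195.0 CPM in that of batch B. Both aged pools stood far above both young pools, by 23.9-fold within batch A and 19.0-fold within batch B, and the fitted log2 difference was 4.36. The values rest on 220, 168, 3004 and 6490 Clu UMIs in the order of the pools above.

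The share of cells with a Clu UMI separated the ages in the same way. It was 2.89% (95% exact binomial interval 2.45 to 3.38) in young pool A and 4.28% (3.48 to 5.20) in young pool B. The aged pools had 44.6% (42.9 to 46.3, batch A) and 59.5% (57.9 to 61.0, batch B). The aged pools also differed from each other by more than these intervals, which cover counting error only. The highest number of Clu UMIs in 1 cell was 9 in the young pools and 15 in the aged pools.

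At equal depth, most of the age difference showed as more cells with a Clu UMI and little of it as more UMIs per positive cell. To compare cells at equal depth, each was thinned at random to 3000 UMIs, which left out 230 cells below that depth (0, 50, 176 and 4 in young A, young B, aged A and aged B). Clu was then detected in 1.39% and 2.60% of young cells and in 30.3% and 37.3% of aged cells. Per cell, aged pools held 23.6-fold (batch A) and 15.6-fold (batch B) as many Clu UMIs, of which the share of positive cells accounted for 21.8-fold and 14.4-fold. UMIs per positive cell rose 1.08-fold in both batches, from 1.32 and 1.37 to 1.43 and 1.48. With counts this low a positive cell mostly holds a single UMI, so that the level per positive cell has a floor of 1. A rise of Clu in every cell would then also show mainly as a larger share of positive cells. The split therefore cannot tell more expressing cells from more transcript per cell.

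**Figure D1:**
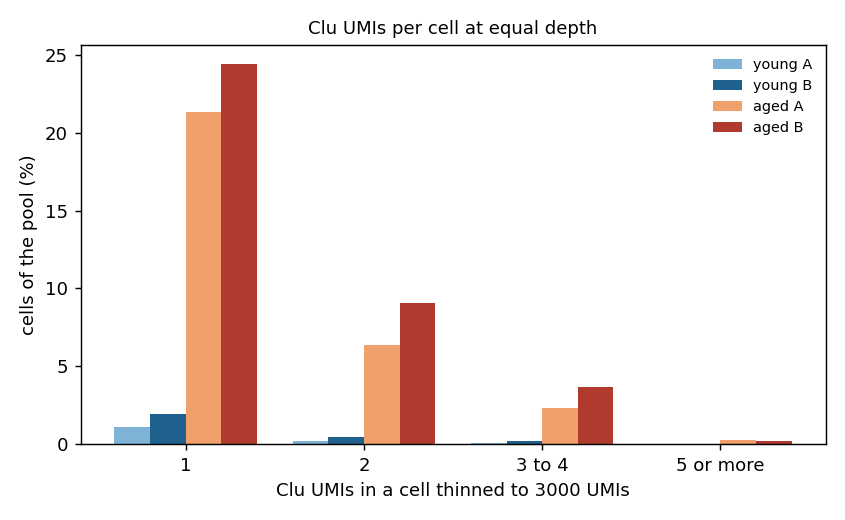
Percent of the cells of each pool (y axis) that held 1, 2, 3 to 4, or 5 or more Clu UMIs after thinning to 3000 UMIs per cell (x axis), for 2 young and 2 aged pools. Single-UMI cells make up 1.08% and 1.91% of young and 21.4% and 24.4% of aged pools, and cells with 5 or more stay at or under 0.254% in all 4.

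Clu UMIs were spread over cells more unevenly than counting alone would give. The variance over the mean of thinned Clu counts, which is 1 for randomly scattered UMIs, was 1.74 and 1.68 in the young pools and 1.46 and 1.33 in the aged pools. In young pool A, 1 cell that also held 912 Spp1 UMIs carried 6 of the 95 Clu UMIs. It raises the value of that pool, which was not computed without it. The variance over the mean stayed above 1 within HSC-like cells, at 1.38, 1.73, 1.38 and 1.29 in young A, young B, aged A and aged B.

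To see which cells carried Clu, cells were placed in gates by detected markers, with Clu in none of the marker lists. A lineage gate needed 3 detected markers of 1 lineage out of 10. Cells in no lineage gate were called HSC-like with 3 or more of 9 HSC markers and no Cd48 UMI, and CD48-positive with a Cd48 UMI and fewer than 3 HSC markers. Some lineage markers were seen widely: Prtn3, a neutrophil protease, was detected in 85.5% to 97.5% of all cells of a pool, and 11 of the 60 lineage markers were detected in over 20% of the cells of some pool. The neutrophil gate of aged pool A held 463 cells whose summed HSC markers (1236 CPM) were high for that gate, against 57 cells with 319 CPM in aged pool B. The lineage names are therefore names of gates. The class differences below are also given for narrower lineage gates without the 11 widely seen markers, where these could be tested. Cells that left a lineage gate passed to the classes outside these gates, so that those classes grew. CD48-positive cells went from 291, 159, 34 and 28 to 561, 247, 74 and 61 cells in young A, young B, aged A and aged B.

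Among the tested gates, Clu was highest in the megakaryocyte gate and next in HSC-like cells, in every pool. HSC-like cells had 7.80, 16.3, 153 and 209 CPM in young A, young B, aged A and aged B. The megakaryocyte gate had 12.2, 26.5, 180 and 232 CPM in the same order, which placed it first of the gates with at least 10 cells in all 4 pools. The difference between both, a log2 value of 0.20 ± 0.19 (SE), did not pass the test (edgeR's quasi-likelihood test with the pool as a block, Benjamini-Hochberg adjusted p = 0.474), while 23.1% of the 10576 genes tested did. With the widely seen markers left out, the megakaryocyte gate shrank to 44, 2, 32 and 17 cells and was not tested. It then had 10.1, 0, 115 and 244 CPM against 9.10, 18.5, 167 and 215 CPM in HSC-like cells, so that the order turned in young pool B and aged pool A. The megakaryocyte gate as first defined also held 522, 551, 1141 and 1067 CPM of HSC markers in young A, young B, aged A and aged B.

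The gates of the other lineages held less Clu than HSC-like cells. Erythroid-gate cells, marked by Klf1, Gata1 and other red cell genes, had 0.593, 1.80, 48.4 and 39.4 CPM in the same order. Against HSC-like cells they were lower by a log2 value of -2.15 ± 0.34 (adjusted p = 1.85e-06, edgeR; 53.1% of genes called). The basophil and mast cell gate, marked by the proteases Mcpt8 and Prss34 and by the IgE receptor, had 0.629, 0, 77.5 and 29.5 CPM in this order. The log2 difference was -1.73 ± 0.40 (adjusted p = 0.00100, edgeR; 29.0% called). That value was -3.08 without aged pool A. With the narrower gates the erythroid and the basophil and mast cell differences were -1.36 and -2.66. In cells thinned before gating they were -4.00 and -3.18, values that rest on 0, 1, 3 and 0 Clu UMIs and on 0, 0, 4 and 0 Clu UMIs in the 4 pools. All 4 values passed the test. In aged pool B the narrower erythroid gate held 1197 CPM of megakaryocyte markers, against 133 CPM in the gate as first defined. Its Clu level there was 123 CPM, against 39.4 CPM.

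CD48-positive cells, the more advanced multipotent progenitors of the sort, held little Clu. Their level was 1.55 CPM in young A (3 UMIs), 0 in young B, 30.5 CPM in aged A and 9.44 CPM in aged B, a log2 difference of -3.48 ± 0.55 (adjusted p = 1.11e-05, edgeR; 22.6% called). It was -4.09 without aged pool A, -2.90 without aged pool B and -2.97 after thinning. With the narrower lineage gates, where the CD48-positive class was larger, it was -3.73. In young pool B 0 of 159 CD48-positive cells had a Clu UMI, which allows a share of cells with a UMI of up to 1.89% and sets no limit on cells that express the gene below capture. The shares in aged CD48-positive cells, 14.7% of 34 cells and 7.14% of 28 cells, were the lowest of the tested gates in each aged pool. No gate is known to lack Clu, so that the part of free RNA in these shares was not tested. Median depth in these aged cells was 4530 and 6645 UMIs, against 5371 and 6449 in HSC-like cells, in which the shares were 45.3% and 62.7%.

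Cells of the neutrophil gate did not behave alike in the aged pools. In young A, young B, aged A and aged B Clu was at 4.80, 8.21, 139 and 39.5 CPM. The log2 difference from HSC-like cells was -0.76 ± 0.21 (adjusted p = 0.00564, edgeR; 32.8% called), but -0.32 (adjusted p = 0.225) without aged pool B and -1.60 without aged pool A. The narrower gate gave 60.2 CPM in aged A and 12.6 CPM in aged B and a difference of -1.77 ± 0.31. The remaining non-primed cells, with few markers of any kind, lay at 4.12, 2.48, 106 and 124 CPM, a log2 difference of -0.85 ± 0.20 (adjusted p = 0.00467, edgeR; 5.61% called) that did not pass without young pool B (-0.71, adjusted p = 0.0749) or after thinning (-0.27, adjusted p = 0.146), and was -0.95 with the narrower gates.

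**Figure D2:**
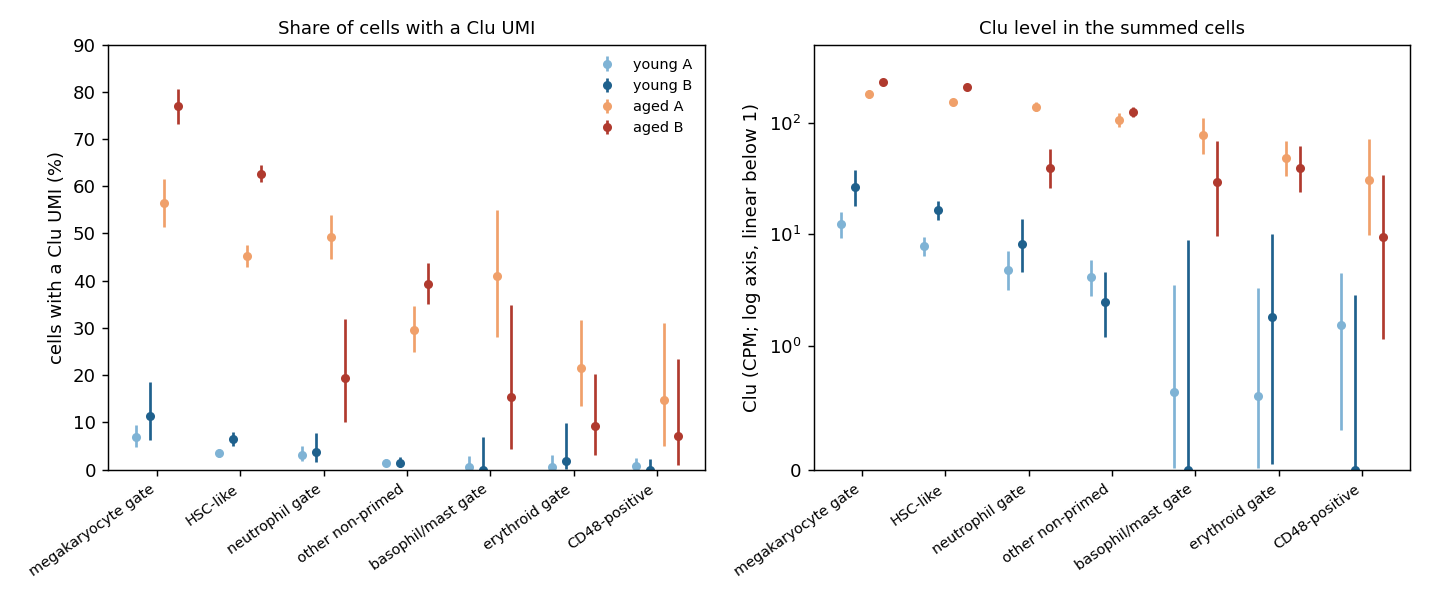
Share of cells with a Clu UMI (left, percent, with 95% exact binomial intervals) and Clu level in the summed cells (right, CPM on an axis that is logarithmic above 1 and linear below, with exact Poisson intervals) for 7 gates in each of 4 pools. In all 7 gates both aged pools lie above both young pools, and within each pool the megakaryocyte gate and HSC-like cells hold more Clu than the erythroid, basophil and mast cell, and CD48-positive cells.

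Taken as 1 class, lineage-primed cells did not pass the test against HSC-like cells. Clu was at 6.04, 10.9, 144 and 190 CPM in primed cells of young A, young B, aged A and aged B, a log2 difference of -0.18 ± 0.07 (adjusted p = 0.0645, edgeR; 40.5% of 12697 genes called). This class is made up largely of the megakaryocyte and neutrophil gates. The difference was -0.65 (adjusted p = 2.14e-05) when 4 markers were needed, -0.74 (adjusted p = 0.000206) after thinning, and -1.28 ± 0.11 (adjusted p = 3.15e-07) with the narrower gates.

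In each of the 7 gates shown in the plot of gates, both aged pools held more Clu than both young pools, by different folds. In HSC-like cells aged pools exceeded young pools 19.6-fold (95% counting interval 15.98 to 24.29) in batch A and 12.8-fold (10.6 to 15.6) in batch B. In the megakaryocyte gate the values were 14.7-fold (11.2 to 19.8) and 8.78-fold (6.12 to 13.1). In the neutrophil gate the batches disagreed, with 28.9-fold (19.5 to 44.7) in batch A and 4.82-fold (2.46 to 9.78) in batch B, and with the narrower gate 10.6-fold (5.08 to 24.6) and 1.87-fold (0.317 to 12.8). With the narrower gates HSC-like cells gave 18.4-fold and 11.6-fold. The erythroid gate had 1 young UMI in each batch, and its ratios of 81.6 (13.6 to 3323) and 21.9 (3.48 to 911) carry that uncertainty. After thinning, batch B held 1 young and 0 aged erythroid UMIs, which gives no direction. The test of whether the age difference depends on class, primed against HSC-like, gave a log2 interaction of 0.29 ± 0.16 that did not pass (adjusted p = 0.527, edgeR; 1.84% of genes called). With a gate of 2 markers it passed (0.65 ± 0.15, adjusted p = 0.0145), and with the narrower gates it was 0.02 ± 0.28.

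T and innate lymphoid cells and B and plasma cells were too few to test. Their gates held 22, 17, 4 and 7 cells and 6, 1, 28 and 10 cells in young A, young B, aged A and aged B. Clu was found in 1, 0, 0 and 2 of the lymphoid cells and in 0, 0, 14 and 2 of the B and plasma cells, so that no direction with age can be read in the lymphoid gate of batch A.

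Cell states within the non-primed cells also differed in Clu. Cells with 3 or more of 10 mitotic markers, such as Top2a and Plk1, had 2.10, 1.22, 72.6 and 138 CPM in young A, young B, aged A and aged B, against 6.64, 11.4, 148 and 202 CPM in the others. They were lower in all 4 pools, by a log2 value of -0.85 ± 0.14 (adjusted p = 6.49e-06, edgeR; 37.3% called), and by -1.39 without aged pool B. Cells with 3 or more replication markers, such as Mcm5 and Pcna, were lower by -0.31 ± 0.11 (adjusted p = 0.0365, edgeR; 30.7% called). This passed neither without young pool A (adjusted p = 0.165) nor without aged pool B (adjusted p = 0.134), and was -0.54 (adjusted p = 4.47e-05) after thinning.

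Immediate early genes, the Fos and Jun family and other genes induced within minutes of a stimulus or of tissue dissociation, went with more Clu. Cells with 3 or more of them had 7.48, 13.9, 150 and 217 CPM in young A, young B, aged A and aged B, and the others 3.26, 8.61, 113 and 171 CPM. The log2 difference was 0.43 ± 0.07 (adjusted p = 0.000210, edgeR; 3.40% called), and it passed after thinning (0.42 ± 0.08) and without any 1 pool (0.38 to 0.55). The interferon-response state showed 0.19 ± 0.06 (adjusted p = 0.0495, edgeR; 1.79% called), which went to 0.01 after thinning and did not pass without aged pool A (adjusted p = 0.473) or aged pool B (adjusted p = 0.601).

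Clu was more frequent in cells that also held transcripts of other genes that rise with age. These were Vwf, which captures platelets at injured vessels, Nupr1, a stress-induced nuclear protein, and Selp, the adhesion receptor P-selectin of platelet granules. In young cells thinned to 3000 UMIs, Clu was at 40 CPM (pool A, 18 UMIs) and 92.2 CPM (pool B, 13 UMIs) where a Vwf UMI was present and at 5.09 and 10.1 CPM where it was not. In aged cells it was at 193 and 244 CPM with Vwf and at 135 and 172 CPM without. For Nupr1 the young values were 30.9 (15 UMIs) and 44.2 CPM (13 UMIs) with and 5.30 and 10.3 CPM without. The aged values were 166 and 198 CPM with and 117 and 151 CPM without. For Selp they were 25.2 and 81.1 against 5.91 and 10.7 CPM in young and 192 and 212 against 128 and 177 CPM in aged pools. The young values with Selp rest on only 4 Clu UMIs in pool A and 9 in pool B. Over all classes together, detection of each of these genes went with a higher Clu level in all 4 pools. Aged cells without a UMI of the partner gene held more Clu than young cells with one. Among thinned HSC-like cells alone, those with a Clu UMI held more Vwf and Selp (log2 0.50 and 0.40, adjusted p = 0.0116 and 0.0216, edgeR). Nupr1 did not pass there (0.14 ± 0.08, adjusted p = 0.916, edgeR).

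**Figure D3:**
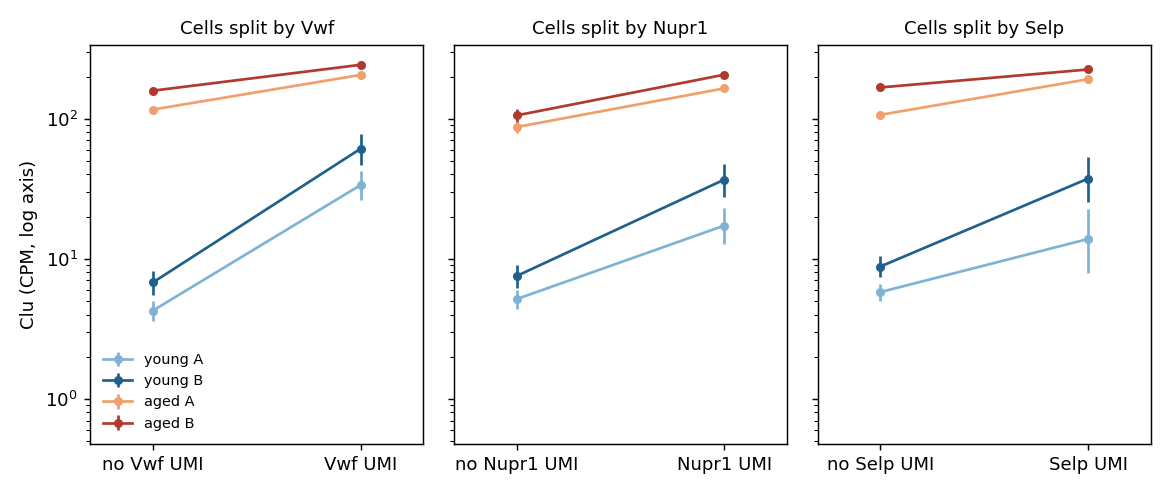
Clu level (CPM, logarithmic axis, exact Poisson intervals) in all kept cells, not thinned, split by whether a Vwf, Nupr1 or Selp UMI was detected, for each of 4 pools. Every line rises, and the aged cells without the partner transcript lie above the young cells with it.

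To ask which genes accompany Clu in a cell, thinned cells with a Clu UMI were compared with those without one inside each pool (72, 57, 954 and 1550 Clu-positive cells in young A, young B, aged A and aged B). Of 11986 genes, 523 differed (4.36%), 212 higher in Clu-positive cells (1.77%) and 311 lower (2.59%), by edgeR's quasi-likelihood test with the pool as a block. DESeq2 called 99 genes, 18 of them higher. A model restricted to HSC-like cells called 48, and leaving out aged pool A or B left 199 or 267.

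The 10 largest rises among called genes with the same direction in all 4 pools and at least 10 CPM on average were Mfap2, Bmp4, Ckb, A230065H16Rik, Ramp2, Sult1a1, Cldn5, Lsr, Ehd3 and Vwf. Vwf was at 9.58, 6.08, 50.8 and 54.0 CPM in Clu-negative cells of young A, young B, aged A and aged B, and at 64.8, 58.5, 87.0 and 83.4 CPM in Clu-positive cells. Its log2 difference was 0.82 ± 0.10 (adjusted p = 6.50e-12, edgeR). Cldn5, a tight-junction protein of endothelium, was higher by 0.84 ± 0.09 (adjusted p = 6.54e-16, edgeR), and Ramp2, the adrenomedullin receptor partner, by 0.88 ± 0.10 (adjusted p = 1.63e-12, edgeR). The other log2 differences were those of Mfap2, a microfibril component (0.9995), the ligand Bmp4 (0.96), the creatine kinase Ckb (0.93), A230065H16Rik (0.92), the sulfotransferase Sult1a1 (0.86), the lipoprotein receptor Lsr (0.83) and the endocytic protein Ehd3 (0.83). Within HSC-like cells alone, Vwf (0.50, adjusted p = 0.0116), Cldn5, Ramp2, Sult1a1 and Ehd3 passed the test, and the other 5 did not. DESeq2 called Mfap2 (adjusted p = 0.0204) and none of the other 9 (adjusted p from 0.0842 to 0.342). Without aged pool B the value of Ramp2 was 1.67, and without aged pool A that of Bmp4 was 1.73.

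The 5 largest falls were genes of red cells and of basophils and mast cells. Prss34 was at 1043, 1119, 631 and 785 CPM in Clu-negative and at 69.4, 11.7, 152 and 10.8 CPM in Clu-positive cells of young A, young B, aged A and aged B, a log2 difference of -3.74 ± 0.15 (adjusted p = 7.22e-61, edgeR). Mcpt8 (-3.38) and the IgE receptor chain Fcer1a (-2.95) fell with it, as did the globins Hba-a2 (-5.51) and Hbb-bs (-4.25). Globin genes have near-identical copies, and their counts may be split between copies. None of the 4 that could be tested in HSC-like cells alone passed there (Prss34 -0.19, Mcpt8 -0.22, Hbb-bs -0.38, Hba-a2 -1.26), and Fcer1a was too low to test. HSC-like cells leave out the erythroid gate and the basophil and mast cell gate, and Prss34, Mcpt8 and Fcer1a are markers of the latter. These values in HSC-like cells are therefore not independent of the gating. Without aged pool B these falls were between -1.81 and -2.75, and without aged pool A between -4.86 and -7.98. DESeq2 called Prss34, Mcpt8 and Fcer1a but not Hba-a2 (adjusted p = 0.459) or Hbb-bs (adjusted p = 0.0574).

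**Figure D4:**
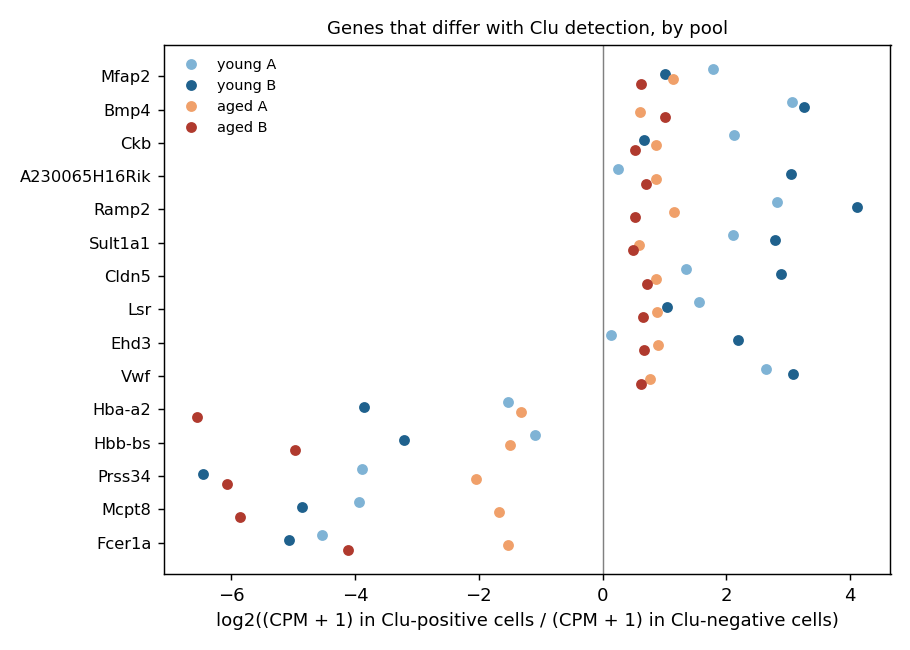
Log2 ratio of CPM + 1 in Clu-positive over Clu-negative thinned cells (x axis) for the 10 largest rises and 5 largest falls (y axis), 1 point for each of 4 pools. The genes were picked for the same direction in all 4 pools. By that choice every point of the 10 upper genes lies right of 0 and every point of the 5 lower genes left of 0. For Vwf, Ramp2, Sult1a1, Bmp4, Cldn5 and Lsr both young points lie beyond both aged points. The young points come from 72 and 57 Clu-positive cells and rest on few UMIs for genes of low level such as Bmp4 and Lsr.

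Genes that share Clu's granule address were read from a list of platelet cargo. Of its 14 genes besides Clu, 11 were tested for age, 3 were called higher and none lower, by edgeR with the batch letter as a block. Over all 13555 genes 2.03% were called, 1.60% higher and 0.428% lower, and the list's median log2 difference was 0.47 against 0.01 for all genes. Vwf rose by 2.81 ± 0.18 (adjusted p = 0.00999), the metalloprotease inhibitor Timp3 by 1.77 ± 0.22 (adjusted p = 0.0334) and the factor V carrier Mmrn1 by 1.501 ± 0.22 (adjusted p = 0.0499). The chemokine Pf4, an abundant alpha-granule protein, was at 168, 173, 174 and 270 CPM in young A, young B, aged A and aged B and did not pass (0.29 ± 0.24). In HSC-like cells alone the age value of Pf4 was -0.83 ± 0.22 and did not pass (adjusted p = 0.119, edgeR). Pf4 is itself a marker of the megakaryocyte gate, and cells of that gate are left out of HSC-like cells. The value of Pf4 there therefore depends on the gating and is no free measure of its age difference. These age calls depend on the pairing of batches: without the block no gene of 13555 was called (1103 at an unadjusted p below 0.05), without aged pool B none and without aged pool A 4.

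Platelet surface proteins gave a like picture. Of 16, 15 were tested for age and 2 were called higher, Selp (4.24 ± 0.28, adjusted p = 0.0112) and the integrin chain Itgb3 (2.48 ± 0.19, adjusted p = 0.0140), with a list median of 0.54. In Clu-positive against Clu-negative cells, Selp, Itgb3 and the glycoprotein Gp9 were higher, by 0.59, 0.65 and 0.42, and none of the list was lower. In the cargo list 3 of 10 were higher (Vwf, Pf4 and Mmrn1) and 1 was lower, the granule proteoglycan Srgn (-0.21), where 1.77% of all genes were higher and 2.59% lower. DESeq2 called 0 genes of either platelet list for Clu status, where it called 99 of all 11986 genes, 18 of them higher. At that share, 0 called does not set lists this short apart from other genes.

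The other apolipoproteins and secreted chaperones were not called with age. Of 9 listed, 6 were tested by edgeR, 0 were called and 2 had an unadjusted p below 0.05 (median 0.18). Over all 13555 genes 2.03% were called with age, and 2175 had an unadjusted p below 0.05. For Clu status 4.36% were called, and 1653 of 11986 had an unadjusted p below 0.05. At these shares, 0 called does not set a list this short apart from other genes. Apoe, the lipid carrier, was at 638, 673, 1238 and 1616 CPM in young A, young B, aged A and aged B (1.06 ± 0.25, adjusted p = 0.135) (DESeq2 called it), and was higher in Clu-positive cells by 0.61 ± 0.07 (adjusted p = 1.48e-13, edgeR). Of 7 clusterin receptors 5 were tested by edgeR and 0 were called for age, 1 with an unadjusted p below 0.05. Vldlr, a receptor of the LDL family, came closest at 9.69, 15.4, 32.3 and 27.5 CPM (1.24 ± 0.24, adjusted p = 0.0863), and it was called by DESeq2 and, with edgeR, in HSC-like cells alone (1.48 ± 0.23, adjusted p = 0.0184). Of 12 complement components and inhibitors 7 were tested for age and 6 for Clu, and of 11 heat shock factors and chaperones 11 and 10. Neither edgeR nor DESeq2 called any of them, with 2 and 1 complement genes and 3 and 3 heat shock genes at an unadjusted p below 0.05 in edgeR. The complement medians were 0.33 with age and 0.23 with Clu, and the heat shock medians -0.03 and 0.18. Dnajb1, a heat-inducible co-chaperone, was at 78.3, 56.9, 149 and 79.8 CPM and did not pass for age (0.66 ± 0.17, adjusted p = 0.159).

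Transcription factors of the megakaryocyte and erythroid branch were not called with age by edgeR (9 tested, 4 at an unadjusted p below 0.05, median 0.34). Over all 13555 genes 2.03% were called with age, and 2175 had an unadjusted p below 0.05. In Clu-positive cells 2 of the 9 were lower by edgeR, where 2.59% of all genes were lower. These were the erythroid factors Klf1 (-1.84 ± 0.29, adjusted p = 2.45e-07) and Gata1 (-1.11 ± 0.24, adjusted p = 0.000528). Gfi1b, a repressor that acts in both branches, was at 34.6, 27.8, 63.2 and 57.0 CPM in young A, young B, aged A and aged B (0.90 ± 0.17, adjusted p = 0.0839). It was called by DESeq2 and, with edgeR, in HSC-like cells alone (1.11 ± 0.19, adjusted p = 0.0271), and with Clu detection its log2 value was -0.0020 ± 0.098. The study's table of the Gfi1b regulon, which was built on these samples and is no independent evidence of direction, holds 11 genes other than Clu. Of these, Sdpr and Gpx3 were called higher in both comparisons and Car1, an erythroid carbonic anhydrase, lower with Clu. Over all genes 1.60% were higher with age, and 1.77% were higher and 2.59% lower with Clu. The regulon's median log2 differences were 0.17 with age and 0.14 with Clu.

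Of the 17 age genes that the study named, also chosen on these samples, 5 were higher and 2 lower with age by edgeR, against 1.60% and 0.428% of all genes. DESeq2 called 15 of them, and all 17 had an unadjusted p below 0.05 in edgeR. Over all 13555 genes DESeq2 called 543, and 2175 had an unadjusted p below 0.05 in edgeR. In Clu-positive cells 7 were higher and 4 lower, against 1.77% and 2.59% of all genes. Among the 7 was the HSC receptor Slamf1 (0.56 ± 0.11, adjusted p = 8.17e-05). Among the 4 were Cd48 (-2.33 ± 0.22, adjusted p = 2.91e-19), the progenitor gene Plac8 (-1.64 ± 0.09, adjusted p = 1.59e-41) and Cd34 (-0.88 ± 0.10, adjusted p = 3.41e-14), all by edgeR.

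The age difference of these genes was measured also in thinned cells without a Clu UMI. Of such cells, 22.6% in aged A and 35.4% in aged B held one before thinning. In thinned cells with no Clu UMI the same model called 99 of 11835 genes for age, 87 higher and 12 lower, against 204 of 12390 in all thinned cells. Nupr1 differed by 4.83 there against 4.74 in all kept cells, which were not thinned, Selp by 4.18 against 4.24, and Vwf by 2.70 against 2.81. Slamf1 (adjusted p = 0.0558), Cd34 (adjusted p = 0.0605) and Plac8 (adjusted p = 0.0601) were not called there by edgeR, and of the 17 age genes 4 were higher and 0 lower.

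Genes whose pattern was most like that of Clu were found by Pearson correlation of log2(CPM + 1) over 32 sums (8 classes in 4 pools) among 7719 genes with at least 10 CPM on average. The sums share libraries and age, and the correlations are given as a description. The 10 highest were Gm10419 (r = 0.952), Gstm2 (0.948), Clca3a1 (0.942), Plscr2 (0.938), Matn4 (0.922), Nupr1 (0.920), Sdpr (0.918), Vwf (0.918), Clec1a (0.914) and Cldn5 (0.902). All 10 were higher in both aged than in both young pools. Gm10419 was at 4.58, 5.85, 73.3 and 76.7 CPM, and Gstm2, a glutathione transferase, at 2.28, 4.39, 47.6 and 66.5 CPM, in young A, young B, aged A and aged B. Each sum was then centred on its pool, which removes the mean difference between pools and ages but not class differences that vary with age. Gm10419 (0.901) and Vwf (0.900) came first, and Nupr1 fell to 0.690.

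**Figure D5:**
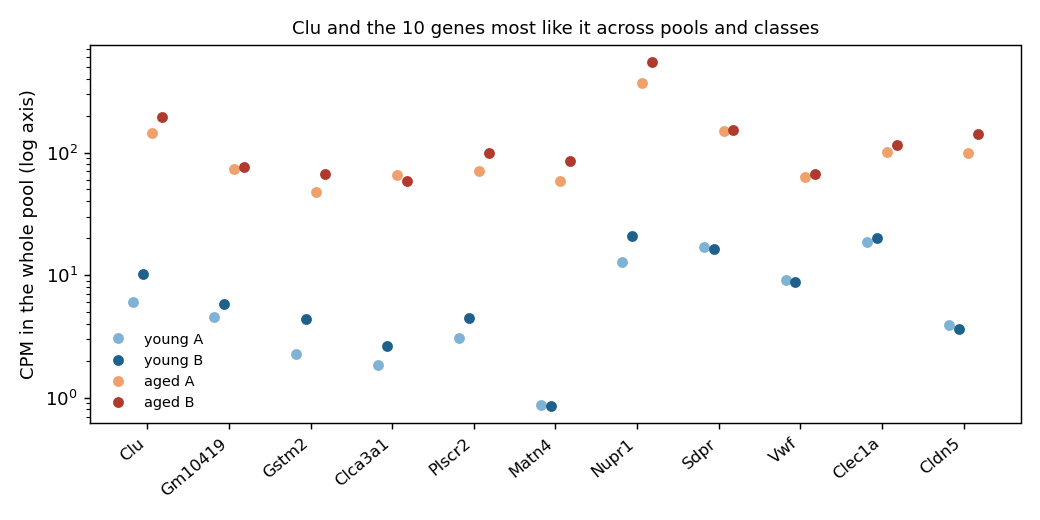
Level in the whole pool (CPM, logarithmic axis) of Clu and of the 10 genes with the most similar pattern over pools and classes, 1 point for each of 4 pools. For all 11 genes both aged pools lie above both young pools, with Nupr1 reaching 549 CPM in aged pool B.

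The genes beside Clu on chromosome 14 were not called with age. Of the 5 measured genes on each side, 6 were tested, 0 were called by edgeR or DESeq2, and 4 had an unadjusted p below 0.05 in edgeR. Over all 13555 genes edgeR called 2.03%, and 2175 had an unadjusted p below 0.05. At that share, 0 called of 6 does not set the neighbours apart from other genes. Gulo, which encodes the last enzyme of vitamin C synthesis and is the nearest, was at 0.576, 0.610, 1.92 and 3.27 CPM in young A, young B, aged A and aged B, with a log2 difference of 2.00 ± 0.44 (adjusted p = 0.109). Pbk (-0.66), Esco2 (-0.84), Ccdc25 (-0.07), Ephx2 (0.76) and Ptk2b (0.72) had adjusted p-values from 0.123 to 0.904. Scara5, Scara3, Adam2 and Chrna2 were at or below 0.482 CPM in every pool.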

How the data were processed

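The deposited UMI counts per gene and barcode are not normalized, and the submitters' processing notes name Cell Ranger 2.2.0 and the builds mm10 and GRCm38.p4. No source used here names the annotation release. Barcodes within 2 SD of a pool's mean log UMI count were kept, as in the study, and no doublet caller was run. Counts were summed per pool, or per pool and class, and tested with edgeR 4.0.16 (TMM, filterByExpr, quasi-likelihood test, Benjamini-Hochberg adjustment over all genes, threshold 0.05), with DESeq2 1.42.0 as an alternative, in R 4.3.3. The age model has the batch letter, which same-lettered young and aged pools share by the study's methods, as a block. With 1 pool left out the age model has no block. Over 13555 genes the A-minus-B difference correlated between ages (r = 0.489). Class, state and Clu-status models have the pool as a block. Their SEs and p-values rest on a spread estimated with the help of other genes. For a single gene they can be much narrower than the spread between the 4 pools. Prss34, at -3.74 ± 0.15 with Clu status, had log2 ratios of -3.89, -6.46, -2.05 and -6.06 in young A, young B, aged A and aged B. The main edgeR models of age, of primed against HSC-like cells, of Clu status and of the interactions with age were tested on simulated data. Those of single classes and of states and the DESeq2 models were not. Thinning drew 3000 UMIs per cell with a fixed seed. Clu itself was left out of the genes tested between Clu-positive and Clu-negative cells. Neighbouring genes come from GENCODE M21, matched by gene ID. Named genes were Clu, the listed pathway genes, the 10 genes most correlated with Clu, the 10 largest rises and 5 largest falls with Clu detection, and 5 neighbours on each side, while the set of all alternatives stands in the closing section. Genes, lists and gates were chosen with earlier results of these data known. The value of 1 listed platelet surface gene is not reported here.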

Additional observations from a re-analysis of the deposited data

Results flagged for a closer look

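The difference between Clu-positive and Clu-negative cells depended on age for 69 of 11986 genes (0.576%, edgeR's quasi-likelihood test of the interaction with the pool as a block). Named genes with a smaller excess in Clu-positive cells of aged than of young pools included Ramp2 (log2 interaction -2.74 ± 0.41, adjusted p = 3.98e-08), Vwf (-2.15 ± 0.39, adjusted p = 2.50e-05), Nupr1 (-2.12 ± 0.28, adjusted p = 1.23e-08) and Sult1a1 (-1.85 ± 0.20, adjusted p = 7.97e-16). Matn4 (-3.60 ± 0.87, adjusted p = 0.00998) and the platelet cargo gene Ppbp (-3.44 ± 0.57, adjusted p = 1.48e-06) were also called. For Ppbp the log2 ratios were 3.58, -2.58, -0.44 and -0.24 in young A, young B, aged A and aged B, so that only young A had an excess. Prss34 (1.21 ± 0.27, adjusted p = 0.0149) and Mcpt8 (1.33 ± 0.29, adjusted p = 0.00661) had a smaller deficit in aged pools in the fit, though the deficit in aged pool B lay in the range of the young pools or beyond it and that in aged pool A was the smallest of the 4. For Nupr1 the log2 ratios in young A, young B, aged A and aged B were 2.38, 2.56, 0.49 and 0.13. The young Clu-positive sums hold only 72 thinned cells in pool A and 57 in pool B. The young values of Ramp2, Vwf, Nupr1, Matn4, Ppbp, Prss34 and Mcpt8 in Clu-positive cells therefore rest on small UMI counts.

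A value that moves with age beside this difference is how many cells counted as Clu-negative held Clu before thinning. Of cells without a Clu UMI after thinning, 1.52% and 1.82% in young A and B and 22.6% and 35.4% in aged A and B held one before thinning. Its part in the result was not tested.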

How the results depend on the processing

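Of the 291 recomputed values counted in this section, none with a test changed its direction. Listed genes outside that count could change it, as Pf4 did with age (0.29 in whole pools, -0.83 in HSC-like cells). HSC-like cells leave out the megakaryocyte gate, of which Pf4 is a marker, so that this change may come from the gating, which was not tested. Class and state differences were recomputed after thinning and with 1 pool left out, and class differences other than the megakaryocyte one also with the narrower gates. The age calls (275 genes) were 0 without the replicate block, that is without the pairing of batches, 543 with DESeq2, 774 with no filter on low counts, 204 after thinning, 99 in thinned cells without a Clu UMI, and 0 to 287 when 1 pool was left out (160 without young B, 4 without aged A, 0 without aged B, where 1040 had an unadjusted p below 0.05). The Clu log2 difference between ages (4.36) was 3.96 in HSC-like cells and 3.91 to 4.88 with 1 pool left out and no block. Clu in primed against HSC-like cells (-0.18) was -0.65 with 4 markers, -0.74 after thinning and -1.28 with the narrower gates, a choice made after seeing the data, and -0.15 (adjusted p = 0.988) with no pool block. The class by age interaction was 0.65 with 2 markers. With 1 pool left out, the neutrophil difference ranged from -1.60 to -0.32, that of other non-primed cells from -0.99 to -0.71 (-0.27 after thinning), the replicating state from -0.38 to -0.21 and the interferon state from 0.15 to 0.21 (0.0090 after thinning). Genes that differ with Clu detection (523) numbered 48 in HSC-like cells, 1197 without thinning, 252 for 2 or more Clu UMIs, 99 with DESeq2, 210 in young pools only and 199 to 584 with 1 pool left out. Interaction genes (69) numbered 13, 117 and 20 in HSC-like cells, for 2 or more UMIs and with DESeq2, and 28 to 54 with 1 pool left out. After thinning the Clu-positive shares were 1.39%, 2.60%, 30.3% and 37.3%. Of 291 recomputed values, 130 for single genes and 86 for comparisons kept their side of the threshold or their range, 34 single-gene values and 8 for comparisons no longer passed, 4 newly passed and 29 moved. The cause of each change was not tested, except that thinning lowers shares and Clu-negative or HSC-like models hold fewer cells. Depth limits the Clu values of young CD48-positive, erythroid and basophil or mast cells, which rest on 0 to 3 UMIs.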

Other observations

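Among genes that were not in any list, the surface protein Cd53 of leukocytes was at 68.1 and 77.1 CPM in Clu-negative and at 4.63 and 5.85 CPM in Clu-positive cells of young pools A and B. In aged pools A and B it was at 66.4 and 52.1 CPM against 41.9 and 35.5 CPM. Tm4sf1, a membrane protein of endothelium, was at 1.56 and 1.25 CPM in Clu-negative and at 18.5 and 40.9 CPM in Clu-positive young cells, and at 33.8 and 42.8 against 47.5 and 56.8 CPM in aged cells. Both genes were chosen after their values were seen, from the genes whose difference depended on age. The young Clu-positive sums hold only 72 thinned cells in pool A and 57 in pool B. Their values for both genes rest on very few UMIs, fewest for Cd53, and are no firm measure of level.

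A few cells carried other genes almost alone. In young pool A, 1 Clu-positive cell held 912 Spp1 UMIs and 22 Hpgd UMIs among 3000, with 6 Clu UMIs, the highest thinned Clu count of the young pools, and no other Clu-positive cell of that pool held either gene. In aged pool A, 1 cell with 1 Clu UMI held 615 of the 640 Ighg2c UMIs of the Clu-positive cells. Another cell of young pool A, with 1 Clu UMI, held 19 of the 21 Ppbp UMIs of the Clu-positive cells. These cells enter the sums, and Spp1, Hpgd, Ppbp and Ighg2c are among the genes whose difference depended on age. Values without these cells were not computed.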
